A study of Homo sapiens with 4 samples.

Results

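Ribosome footprints were followed on 8 genes that mark blood stem and progenitor cells in 4 human leukemia lines: CD34, KIT, FLT3 and PROM1 at the cell surface, the transcription factors ERG, MECOM and MYB, and the small membrane protein gene SMIM24. The genes were found by their reference gene name in any of the 4 deposited annotations and joined by gene identifier, which gave 8 genes out of 60651. They were chosen by their footprint levels in these libraries, so the levels are given as a description and no test is made on them. Of the 8, 7 reached 600 aligned bases in at least 1 line, and PROM1 was listed at 0 in every line.

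Ribosome profiling sequences the RNA fragments that ribosomes protect from nuclease, here after lysis with cycloheximide, and it was done on 1 library per line in a series on long non-coding RNAs with a second role as translation templates. The library labelled MOLM13 bears the name of a line from an acute monocytic leukemia with a FLT3 internal tandem duplication, grown in DMEM. K562 was derived from the blast crisis of a chronic myeloid leukemia, with erythroid traits, THP_1 from an acute monocytic leukemia, and HL60 from an acute myeloid leukemia. THP_1 was grown in RPMI1640 with 2-mercaptoethanol and the other lines, K562 and HL60, in IMDM, all with serum, and no line was treated or engineered as far as the labels say.

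Hematopoietic stem and progenitor cells carry CD34 and the receptor kinases KIT and FLT3 on their surface, and lose them as they mature. Transcription factors such as ERG, MECOM and MYB keep the progenitor state or the growth of progenitors, and each is altered or overexpressed in some leukemias. PROM1 encodes CD133, another surface marker of primitive cells, and SMIM24 appears with CD34 in a published leukemic stem cell score.

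Depth ranged from 344 megabases aligned to genes in the library labelled MOLM13 to 973 megabases in HL60, which at the modal fragment of 29 bases is 11.9 to 33.6 times 1000000 footprint equivalents. Levels are scaled TPM, the authors' length-normalised transcript abundance (TPM, which sums to 1000000 per library) added up per gene and scaled between libraries over 3751 genes. Intervals in brackets are 95% exact Poisson intervals from footprint equivalents and cover counting error only. No line has a second library, so no difference between lines can be set against a replicate spread. A footprint level in bulk lysate joins mRNA abundance with ribosome load per mRNA, and fewer cells with the gene cannot be told apart from less RNA in each cell.

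The file given for the library labelled MOLM13 is named differently from its label. FLT3, which this line is known for, was listed at 0 there, as was MEIS1, the usual cofactor of HOXA9. HOXA9 itself had 29.5 scaled TPM, CD33 5.46 and the monocyte enzyme LYZ 10.4, and 0 of these 5 marker genes were higher there than in every other line by the size rule used below. The markers fixed for K562 were high in K562 in 6 of 6 cases (HBE1 at 10580 scaled TPM), and those for THP_1 were high in THP_1 in 5 of 6, with the sixth, CD14, high in HL60 at 43.1 against 1.55 in THP_1. Of the 5 markers fixed for HL60, MPO was high in HL60 at 6359, and 3 were high in THP_1, with ELANE at 1504 in THP_1 against 104 in HL60, PRTN3 at 1088 against 161 and AZU1 at 2065 against 337. Whether the library labelled MOLM13 holds that line was not tested, and the levels and calls of CD34, ERG, SMIM24, KIT and MECOM are also given without it. The nearest profiles, list calls and list medians below all use this library and depend on its label.

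The stretches that carried the most signal in the members, or the reading frame of a transcript to which most of it was assigned, are shown first. For CD34, the coding exon with the highest coverage lies at chr1:207899821-207900003 (hg38, minus strand) and is in capitals, with 15 bases of the neighbouring exons in lower case. For KIT the same is shown for chr4:54699630-54699766 (plus strand), for FLT3 for chr13:28070491-28070612 (minus strand) and for MYB for chr6:135185903-135186020 (plus strand). All 4 are read from GENCODE release 29 transcripts.
CD34: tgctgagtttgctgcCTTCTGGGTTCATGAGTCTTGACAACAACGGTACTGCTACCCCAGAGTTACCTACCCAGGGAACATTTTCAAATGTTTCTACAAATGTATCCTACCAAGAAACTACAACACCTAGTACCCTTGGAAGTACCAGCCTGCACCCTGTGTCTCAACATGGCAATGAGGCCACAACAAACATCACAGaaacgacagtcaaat
KIT: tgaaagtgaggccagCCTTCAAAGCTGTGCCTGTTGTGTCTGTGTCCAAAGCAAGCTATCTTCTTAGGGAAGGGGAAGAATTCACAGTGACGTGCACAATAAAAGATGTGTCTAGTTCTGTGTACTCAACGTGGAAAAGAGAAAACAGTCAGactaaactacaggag
FLT3: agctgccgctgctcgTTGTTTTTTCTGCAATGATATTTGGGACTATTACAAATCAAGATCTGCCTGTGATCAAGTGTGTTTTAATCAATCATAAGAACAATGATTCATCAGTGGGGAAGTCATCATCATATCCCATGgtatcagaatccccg
MYB: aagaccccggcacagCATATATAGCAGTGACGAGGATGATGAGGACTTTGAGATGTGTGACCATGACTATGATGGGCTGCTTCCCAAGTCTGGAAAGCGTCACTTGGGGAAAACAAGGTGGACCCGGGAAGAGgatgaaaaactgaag

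For ERG the coding sequence is shown from the start codon, in capitals, at chr21:38498380 to the end of the next coding exon at chr21:38445404 (hg38, minus strand), because the exon with this start codon held the peak of the gene's signal. For SMIM24 a whole short reading frame is shown, chr19:3474843-3478447 (minus strand, 2 exons), with start and stop codons in capitals. It belongs to the transcript to which most of the gene's bases were assigned. In the library labelled MOLM13 fully coding segments held 29.3% of the SMIM24 bases and partly coding ones 57.1%.
ERG: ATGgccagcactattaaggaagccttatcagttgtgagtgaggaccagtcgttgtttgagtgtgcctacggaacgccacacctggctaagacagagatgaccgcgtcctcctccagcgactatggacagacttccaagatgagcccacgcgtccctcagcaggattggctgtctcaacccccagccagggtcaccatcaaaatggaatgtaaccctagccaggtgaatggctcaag
SMIM24: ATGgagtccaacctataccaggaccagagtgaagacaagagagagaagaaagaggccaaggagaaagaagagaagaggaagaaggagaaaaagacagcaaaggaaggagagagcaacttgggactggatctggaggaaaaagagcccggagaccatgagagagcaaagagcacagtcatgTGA

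CD34, the sialomucin used to isolate stem and progenitor cells, was high in the library labelled MOLM13 and low or listed at 0 elsewhere. Its level was 194 scaled TPM (189.6 to 199.0) in the library labelled MOLM13, 0.427 (0.332 to 0.540) in THP_1, 0.107 (0.0704 to 0.156) in HL60, and it was listed at 0 in K562. These values rest on 6600, 69.1 and 26.9 footprint equivalents in the 3 lines above 0. The library labelled MOLM13 thus lay 455-fold above THP_1, the next line, or 7.10 higher in log2(scaled TPM + 1), and CD34 ranked 479 of its 10459 protein-coding genes listed above 0. Without that library the highest level of CD34 was the 0.427 scaled TPM of THP_1.

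CD34 (ENSG00000174059.17, chr1:207880972-207911402, minus strand) has 9 blocks of merged exons, and the library labelled MOLM13 had signal on all 9. Coverage was highest on block 2, the coding exon printed above, at 414 reads per base, followed by 261 on block 7, 161 on block 3 and 154 on block 8. Segments that are coding throughout averaged 186 in coverage, against 1.35 for segments that are untranslated throughout, and held 86.8% of the gene's aligned bases. The footprints of CD34 in that library thus lay mainly over its reading frame, and its long 3′ block 9 averaged 1.36. StringTie gave 87.9% of the bases to the transcript ENST00000356522.4, 9.29% to ENST00000310833.12 and 2.80% to ENST00000367036.7.

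The faint CD34 signal of THP_1 and HL60 also lay mainly on coding exons, in 7 and 6 of the 9 blocks. In THP_1 coding segments held 97.8% of 2004 aligned bases and block 3 alone 43.3%, and in HL60 they held 75.9% of 781 bases with 62.9% on block 3. All 9 blocks were at 0 in K562. Exon coverage comes from the same StringTie run as the TPM, so a gene at 0 in both is listed at 0 and not shown to be absent.

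KIT, the receptor tyrosine kinase for stem cell factor, was highest in K562, at a low level. It had 5.34 scaled TPM (4.82 to 5.89) in K562 and 0.788 (0.575 to 1.05) in the library labelled MOLM13, and it was listed at 0 in THP_1 and HL60. K562 was 6.77-fold above the library labelled MOLM13, on 389 against 45.3 footprint equivalents. In log2(scaled TPM + 1) the distance was 1.83, which is the nearest of the 8 genes below the size of 2 used to call a gene high. Without the library labelled MOLM13 the distance to the next line was 2.66.

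KIT (ENSG00000157404.16, chr4:54657918-54740715, plus strand) had signal on 13 of 21 exon blocks in K562, and on 3 of 21 in the library labelled MOLM13. In K562 the coverage peaked at 14.2 on block 4, the exon printed above, with 10.9 on block 9 and 8.17 on block 5. Block 9 held 18.7% of the bases, and the 3 fullest blocks held 54.3%. The exon with the start codon held 448 bases in K562. It held 0 in the library labelled MOLM13, whose 645, 378 and 290 bases fell on blocks 3, 9 and 20. In K562 all but 1 of blocks 1 to 11, which encode the extracellular and membrane-spanning regions and the stretch next to the membrane, had signal, and block 21, with the end of the frame and the 3′ untranslated region, held 2080 bases. Between them, on blocks 12 to 20, which encode most of the kinase, there were 33 bases on block 14 and 30 on block 18.

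FLT3, the class III receptor tyrosine kinase for FLT3 ligand, had signal in THP_1 alone among these libraries. Its level there was 1.83 scaled TPM (1.54 to 2.15) on 142 footprint equivalents, rank 9002 of 11593 protein-coding genes above 0, and it was listed at 0 in the library labelled MOLM13, K562 and HL60. The distance to the next line was 1.5 in log2(scaled TPM + 1), below the size rule. In THP_1, 11 of the 26 exon blocks of FLT3 (ENSG00000122025.15, chr13:28003274-28100592, minus strand) had signal, with a peak coverage of 11.1 on block 2 and 33.0% of the bases there. Fully coding segments held 76.6% of the 4111 bases. The exon with the start codon was at 0, as were all 26 blocks in the other 3 libraries.

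PROM1 (ENSG00000007062.12, chr4:15963076-16084378, minus strand), the gene of the CD133 glycoprotein, was listed at 0 in all 4 libraries. Its last exon overlaps in part an exon of FGFBP2 on the same strand, which held 818 aligned bases in the library labelled MOLM13 and 0 in the other 3. All of those bases were assigned to FGFBP2 by the authors' run, so a footprint of PROM1 in that stretch cannot be told apart from a footprint of FGFBP2.

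**Figure D1:**
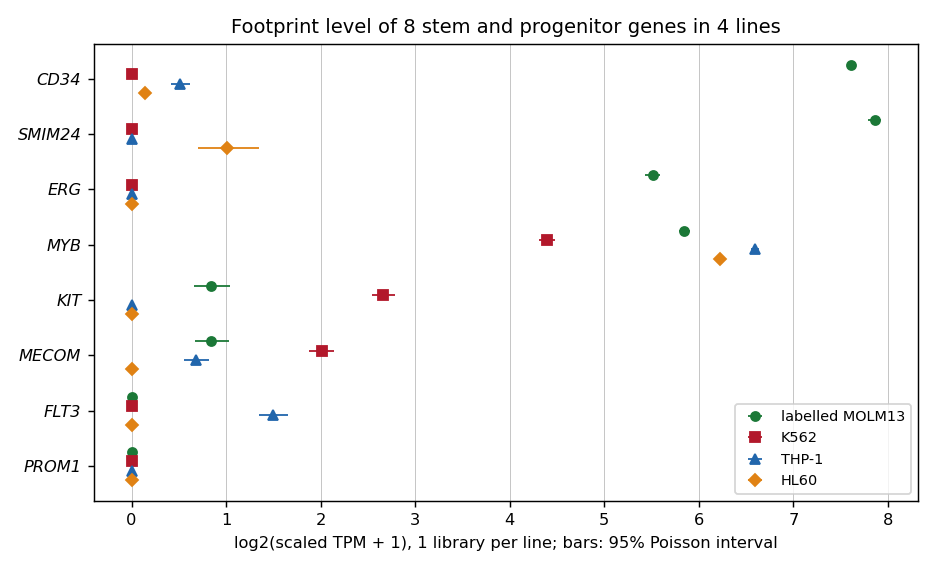
Footprint level of the 8 genes in the 4 lines, as log2(scaled TPM + 1), with 1 point per library. Bars give the 95% Poisson interval (counting error only). Points without signal have no bar because no interval was computed for them, not because they are free of error. CD34, SMIM24 and ERG lie at 5.51 or more to the right of every other point of their row in the library labelled MOLM13, MYB has signal in all 4 lines, and KIT, MECOM and FLT3 stay low.

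ERG, an ETS-family transcription factor of stem cells and endothelium, had signal in 1 library. It had 44.6 scaled TPM (42.1 to 47.2) in the library labelled MOLM13 on 1171 footprint equivalents and was listed at 0 in K562, THP_1 and HL60, with all 19 of its exon blocks at 0 in those 3. In log2(scaled TPM + 1) the distance was 5.51, the smallest among the 3 members above the size rule. It ranked 2059 of 10459 protein-coding genes above 0 in that library, and without it no ERG signal remained.

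Along ERG (ENSG00000157554.19, chr21:38380027-38661780, minus strand) nearly all signal lay from block 5 onward. Blocks 1 to 3, the distal first exons, were at 0, and block 4 held 35 bases. Blocks 1 to 3 are untranslated, so their zeros do not say at which start transcription began. Block 5, at chr21:38498363-38498477, had the highest coverage at 70.2 and 23.8% of the bases, and it is mostly 5′ untranslated with the start codon printed above near its 3′ end. The coding blocks 9 to 12 that follow had coverages of 36.8, 23.4, 22.1 and 28.3, and coverage of the coding blocks 16 to 18 was 4.20, 14.8 and 4.90. StringTie divided the bases over 5 transcripts, with 33.0% on ERG-201, 29.2% on ERG-211, 20.4% on the retained-intron form ERG-212, 8.73% on ERG-208 and 8.64% on ERG-210.

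RefSeq (GRCh38.p14) places a start of ERG at the 5′ edge of block 5, the block with the gene's highest coverage. The window of 250 bases before to 50 after that start, chr21:38498428-38498727 (minus strand), is printed. Capitals mark TTATCT, the reverse complement of the GATA-type motif AGATAA, and CTTCCT, the reverse complement of the ETS-type motif AGGAAG.
ERG downstream start: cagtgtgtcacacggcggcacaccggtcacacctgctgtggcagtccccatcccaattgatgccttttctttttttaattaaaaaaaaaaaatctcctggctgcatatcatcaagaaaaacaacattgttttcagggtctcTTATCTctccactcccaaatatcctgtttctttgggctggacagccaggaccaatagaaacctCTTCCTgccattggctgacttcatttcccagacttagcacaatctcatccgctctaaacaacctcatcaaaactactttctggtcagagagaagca

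Searched on both strands, AGGAAG was in 33.6% and AGATAA in 10.3% of all 35116 RefSeq promoter windows of 300 bases, TGTGGT (RUNX-type) in 13.1% and TAACNG (MYB-type) in 20.8%. The CD34 window at chr1:207911076-207911375 and the distal ERG window at chr21:38660618-38660917 held none of these 4 strings, and that of SMIM24 held 1 MYB-type match. A match describes the letters of the window and is no evidence of binding. All 8 members matched the promoter table, with 16 windows.

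MECOM, the zinc-finger gene whose forms include EVI1 and MDS1-EVI1, was lowly covered. It had 3.03 scaled TPM (2.67 to 3.42) in K562, 0.797 (0.593 to 1.05) in the library labelled MOLM13 and 0.60 (0.468 to 0.759) in THP_1, and was listed at 0 in HL60. K562 was 3.80-fold above the library labelled MOLM13, or 1.16 in log2(scaled TPM + 1), on 254 against 51.0 footprint equivalents. The intervals of the library labelled MOLM13 and THP_1 overlap, so those neighbours in the order do not differ beyond counting error. Without the library labelled MOLM13 the distance of K562 to the next line was 1.33.

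In K562 the MECOM signal (ENSG00000085276.19, chr3:169083499-169663775, minus strand) was concentrated, with 7 of 26 exon blocks above 0 and 90.3% of bases on 3 of them. The long coding block 16 held 49.5% of the 7360 bases. Block 6, the untranslated exon at chr3:169146723-169147734 at which the EVI1 form begins, held 2340 bases, and block 1, the distal exon at which MDS1-EVI1 begins, held 667. The library labelled MOLM13 had signal on 3 blocks and THP_1 on 4, block 16 among them in both. Exons of both the short and the long form thus had signal in K562, while the distal exon was at 0 in the other 3 lines. Block 12, with the start codon of the transcript that took the most MECOM bases, was at 0 in every line. With block 6 untranslated, the exon signal does not say which form was translated.

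**Figure D2:**
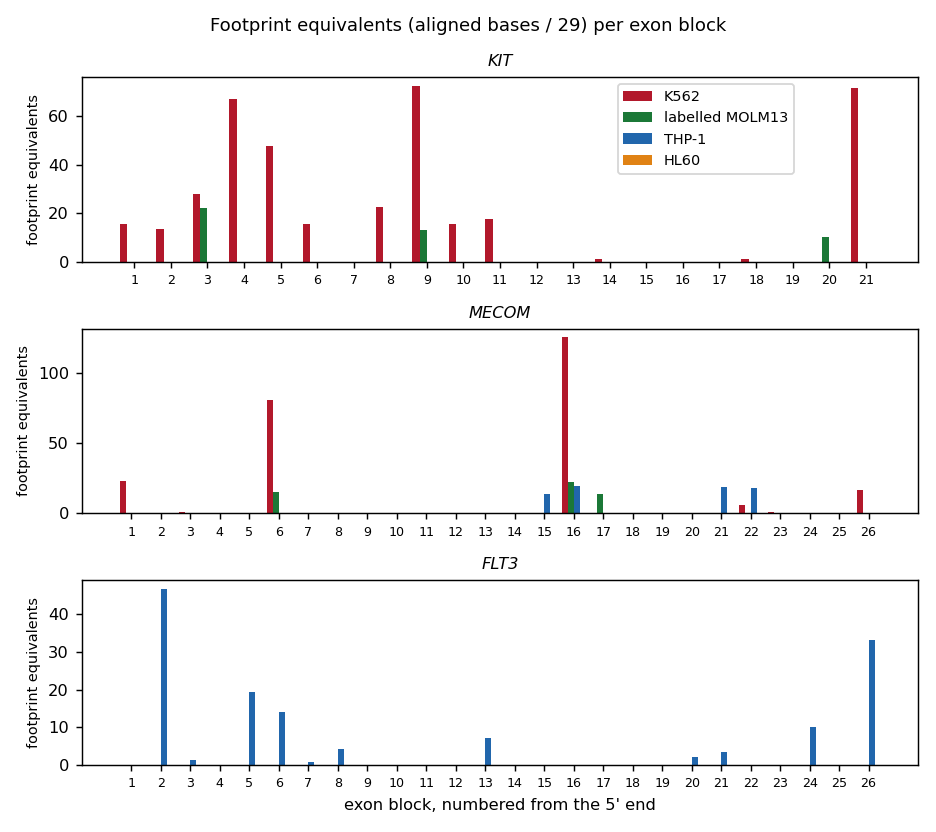
Footprint equivalents (aligned bases divided by 29) on each merged exon block of KIT, MECOM and FLT3, numbered from the 5′ end, by library. KIT in K562 has signal on 13 of 21 blocks, MECOM in K562 has most on blocks 16 and 6, and FLT3 has signal in THP_1 alone, on 11 of 26 blocks.

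MYB, the DNA-binding factor that sustains proliferation of progenitors, was the member with signal in every line. It had 95.6 scaled TPM (92.7 to 98.5) in THP_1, 73.9 (72.3 to 75.7) in HL60, 56.6 (54.2 to 59.1) in the library labelled MOLM13 and 20.0 (18.9 to 21.3) in K562. The levels rest on 4078, 7288, 2071 and 1091 footprint equivalents in the same lines. These intervals do not overlap, though they cover counting error only.

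The order at the top of MYB depended on the measure. THP_1 was 1.29-fold above HL60 in scaled TPM, a log2 distance of 0.37, but per 1000000 aligned bases MYB had 217 bases in HL60, 174.3 in THP_1, 174.5 in the library labelled MOLM13 and 67.0 in K562. StringTie put 58.5% of the THP_1 bases on MYB-235, a form of 1818 bases, while MYB-203, of 3684 bases, took 88.1% of them both in K562 and for the library labelled MOLM13. In HL60 MYB-205 took 41.9% and MYB-209 40.1%. Scaled TPM divides by these lengths and carries the scaling between libraries, and aligned bases per 1000000 have neither. The ratio of THP_1 to the library labelled MOLM13 was 1.69 in scaled TPM and 0.999 in aligned bases per 1000000.

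K562 was the lowest line for MYB by either count. THP_1 was 4.77-fold above K562 in scaled TPM and 2.60-fold in aligned bases per 1000000, and the library labelled MOLM13 was 2.82-fold and 2.60-fold above it. Among protein-coding genes above 0, the rank of MYB was 1131 of 11593 for THP_1, 1370 of 11221 for HL60, 1643 of 10459 for the library labelled MOLM13 and 3425 of 9900 for K562.

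The 20 exon blocks of MYB (ENSG00000118513.19, chr6:135181308-135219173, plus strand) were filled alike in the 4 lines, with coverage highest in all of them on block 2, which contains the coding stretch printed above. Its coverage was 248 in HL60, 198 in THP_1, 108 in the library labelled MOLM13 and 62.1 in K562. Across the 20 blocks, Pearson's r between 2 lines' shares of bases ranged from 0.777 for the library labelled MOLM13 with HL60 to 0.926 for THP_1 with HL60, a description over blocks of 1 gene that share lengths and sequence.

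Some MYB blocks departed from the common profile. Block 10, a coding exon, held 2.46% of the MYB bases in the library labelled MOLM13, against 7.50% in K562, 11.9% in THP_1 and 10.8% in HL60. Block 11 held 5.01% in K562, against 0.435% in the library labelled MOLM13, 0.595% in THP_1 and 0.392% in HL60. Block 5 held 13.2% in the library labelled MOLM13, against 8.52% in K562, 5.58% in THP_1 and 6.66% in HL60. The MYB bases behind these shares numbered 60053 for the library labelled MOLM13, 31653 for K562, 118253 for THP_1 and 211341 for HL60. The antisense gene MYB-AS1 overlaps MYB and was listed at 0 in every line, and since the run used no strand option its reads could not be told apart from those of MYB.

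**Figure D3:**
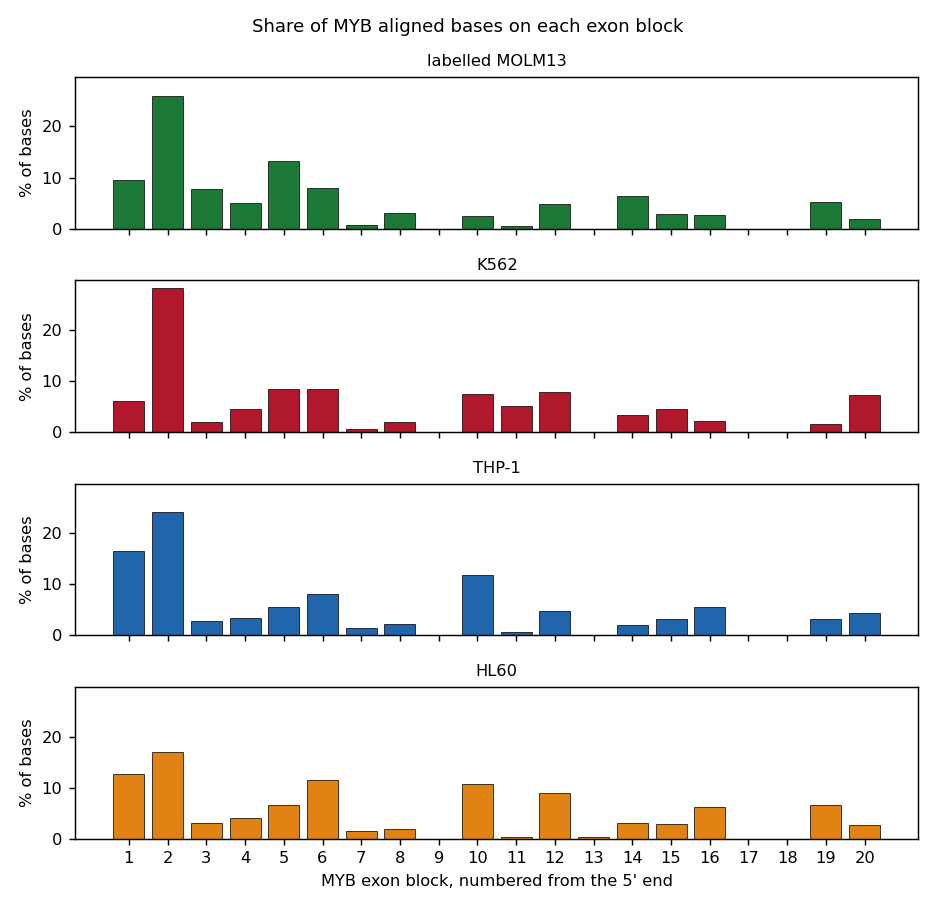
Percent of the aligned bases of MYB on each of its 20 merged exon blocks, numbered from the 5′ end, in 1 panel per library. Block 2 is the tallest bar in every panel, from 16.9% in HL60 to 28.2% in K562, and block 10 is lower in the library labelled MOLM13 (2.46%) than in the other 3.

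SMIM24, a gene for a small integral membrane protein, had the highest level of the 8 genes per length. It had 231 scaled TPM (221 to 242) in the library labelled MOLM13 and 1.02 (0.633 to 1.55) in HL60, and it was listed at 0 in K562 and THP_1. The library labelled MOLM13 was 227-fold above HL60, or 6.85 in log2(scaled TPM + 1), on 1796 against 21.3 footprint equivalents. The rank of SMIM24 there was 391 of 10459 protein-coding genes above 0. Without that library its highest level was the 1.02 scaled TPM of HL60.

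Where the SMIM24 signal lay on the gene (ENSG00000095932.7, chr19:3473986-3480525, minus strand) differed from its main annotated form. Coverage in the library labelled MOLM13 was 0 on block 1, which holds the start codon of the main form. It was 5.04 on block 2, 236 on block 3 and 33.8 on block 4. Block 3, at chr19:3478419-3478488, holds the start codon of the short frame of 180 coding bases printed above. StringTie gave 74.1% of the bases to SMIM24-204, which carries the short frame, 25.9% to SMIM24-203 and 0 to the main form, SMIM24-201. In HL60 the 617 bases also lay on blocks 3 and 4 only, with coverages of 3.16 and 0.392. Since blocks 3 and 4 also belong to longer forms, coverage on them does not say which form or which start codon was used.

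**Figure D4:**
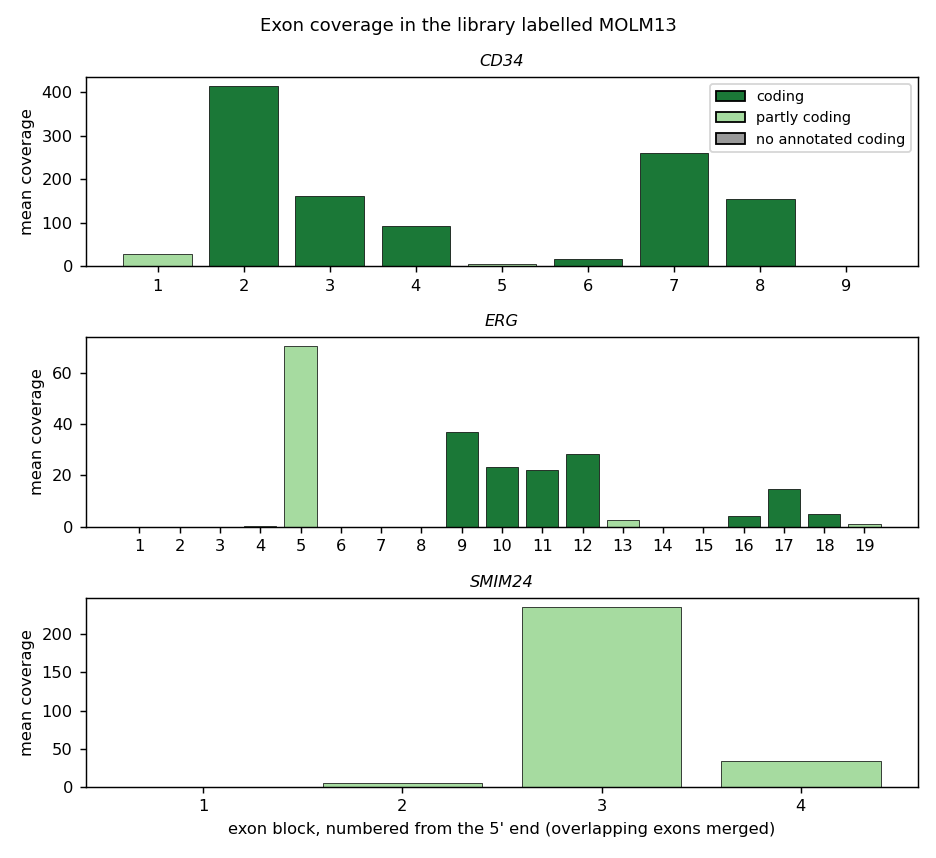
Mean coverage on each merged exon block of CD34, ERG and SMIM24 in the library labelled MOLM13, numbered from the 5′ end, with colour for coding, partly coding and other blocks. CD34 peaks on block 2 (414), ERG on block 5 (70.2) with its 3 most distal blocks at 0, and SMIM24 on block 3 (236) with block 1 at 0.

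The size rule for a high call asked for 600 aligned bases and a log2(scaled TPM + 1) that exceeded each of the other 3 lines by 2 or more. Low calls used its mirror, with 600 aligned bases in each of the other 3 lines. By this rule CD34, ERG and SMIM24, 3 of 8, were high in the library labelled MOLM13, where 1.82% of 12602 protein-coding genes tested were high. In K562 0 of 8 were high (1.63% of all), in THP_1 0 of 8 (3.14%) and in HL60 0 of 8 (1.39%). Low calls were 0 of 8 in the library labelled MOLM13 (1.39%), K562 (3.43%), THP_1 (0.421%) and HL60 (1.26%). ERG, KIT, FLT3, SMIM24 and PROM1 had signal in fewer than 3 lines, so they could not be called low in any line. KIT in K562 and FLT3 in THP_1 also passed with a pseudocount of 0.1 (2.61 and 4.27) and with aligned bases left undivided by length (2.41 and 2.89). The members were chosen with these contrasts known, so nothing is read from the counts against the shares of all genes.

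Set pair by pair at the same size, the library labelled MOLM13 had CD34, ERG and SMIM24 at least 4-fold over K562 (8.67% of all genes), THP_1 (6.82%) and HL60 (9.56%), on the log2(scaled TPM + 1) scale. KIT was apart in K562 over THP_1 (6% of all) and over HL60 (8.27%), and MECOM in K562 over HL60. MYB was apart in THP_1 over K562 (12.8%), but no longer with undivided bases, with coverage of coding exons or with TPM rescaled over nuclear protein-coding genes. The other directions held 0 of 8, namely K562 over the library labelled MOLM13 (4.97% of all genes), HL60 over K562 (10.1%), THP_1 over the library labelled MOLM13 (9.95%), THP_1 over HL60 (7.13%), HL60 over THP_1 (3.2%) and HL60 over the library labelled MOLM13 (7.37%).

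The frequency of listings at 0 differed by library. Of protein-coding genes with at least 10 scaled TPM in each of the other 3 lines, 3.42% were listed at 0 in K562, 1.42% in the library labelled MOLM13, 0.318% in HL60 and 0.194% in THP_1. CD34, ERG, FLT3 and SMIM24, also listed at 0 in K562, did not reach that level in each of the other 3 lines. The shares therefore do not apply to them directly. How far their zeros, in K562 or in another line, can be trusted was not tested.

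The genes whose profile over the 4 lines lay nearest, by Euclidean distance of log2(scaled TPM + 1), were named for the members with at least 10 scaled TPM. Nearest to CD34 were HPGDS, hematopoietic prostaglandin D synthase, at a distance of 0.82, with SMIM24 at 1.04 and the lectin-like receptor CLEC2B at 1.59. HPGDS had 126 and CLEC2B 68.0 scaled TPM in the library labelled MOLM13, and both were listed at 0 elsewhere. SMIM24 in turn had CD34 nearest, then HPGDS at 1.34 and CRISP3, a secreted protein of granulocytes and glands, at 1.97. CRISP3 had 377 scaled TPM in the library labelled MOLM13, 2.59 in THP_1 and 1.14 in HL60. The 2 members CD34 and SMIM24 each appeared among the nearest 3 of the other, but both were chosen by these same levels. Any gene with a similar level in that library and near 0 elsewhere scores as near, so no link between them is read from it.

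Nearest to ERG were POLB, DNA polymerase beta, at 0.0022, LY96, the co-receptor of TLR4, at 0.040 and the readthrough gene KLRC4-KLRK1 at 0.081. Their levels in the library labelled MOLM13 were 44.7, 43.4 and 47.3 scaled TPM, with 0 listed in the other 3 lines. Any gene with that level and 0 elsewhere scores as near, and the readthrough gene shares exons with its neighbour, so its value is uncertain. Nearest to MYB were HLA-E at 0.35, the ubiquitin ligase RNF4 at 0.50 and the translation inhibitor PDCD4 at 0.59. HLA-E had 89.9 scaled TPM in HL60, 87.6 in THP_1, 54.0 in the library labelled MOLM13 and 22.6 in K562.

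Related genes were then read in 9 lists that exclude the members. ERG acts in stem cells with a group of 6 other factors, of which 0 were high in any line. LMO2 was low in the library labelled MOLM13, at 5.29 scaled TPM, against 26.2 in K562, 28.9 in HL60 and 39.8 in THP_1. FLI1, the nearest relative of ERG, was low in K562, where it was listed at 0, against 22.1 in the library labelled MOLM13, 25.5 in THP_1 and 27.2 in HL60. GATA2 had 20.4 scaled TPM in the library labelled MOLM13, 7.19 in K562, 0.993 in HL60 and 0.951 in THP_1. RUNX1 had 57.6 in THP_1 and 21.1 in the library labelled MOLM13, and TAL1 2.86 in K562. GATA2 thus had the same highest line as ERG, below the size rule, while the highest line of LMO2 and RUNX1 was THP_1. Their median log2 difference between the library labelled MOLM13 and the mean of the other 3 was -0.20, beside 0.08 over all genes tested.

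Of 17 other genes of stem and early progenitor cells, 2 were high in the library labelled MOLM13 (1.82% of all genes tested). These were HOPX, a homeodomain-only protein, at 7.32 scaled TPM and SPINK2, a protease inhibitor, at 9.86, with at most 0.508 elsewhere. LIN28B, a fetal-stage RNA-binding protein, was high in K562 at 12.8, HHEX was low in THP_1 and IGF2BP2 low in HL60, while HLF, CRHBP, AVP and NPR3 were listed at 0 in all 4. MSI2, an RNA-binding protein of stem cells, had 30.8 in the library labelled MOLM13, 10.0 in K562, 4.37 in HL60 and 2.61 in THP_1 without reaching the size rule. The list's median difference for the library labelled MOLM13 was 0.92, and for HL60 it was -1.01 beside -0.19 over all genes. Both list medians count the 4 genes at 0 in every line as differences of 0.

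Among 14 other surface proteins of progenitors, the adhesion proteins ESAM and ADGRG1 were high in the library labelled MOLM13 (1.82% of all genes tested). They had 16.7 and 15.2 scaled TPM there and were listed at 0 in the other 3. ROBO4, CD200 and TEK were, like PROM1, listed at 0 in every line. IL3RA was also listed at 0, but any copy on the pseudoautosomal part of chromosome Y was left out, so its absence is not shown. ITGA6, an integrin subunit, had 25.2 scaled TPM in the library labelled MOLM13, against 15.9 in HL60, and CD44, a hyaluronan receptor, had 115.8 in the library labelled MOLM13 and 58.9 in THP_1. The list's median difference for that library was 0.80, with the 4 genes at 0 in every line counted as differences of 0.

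The 15 further genes of the leukemic stem cell score that holds CD34 and SMIM24 had 3 high in the library labelled MOLM13. Of all genes tested, 1.82% were high there. MMRN1, a multimerin, had 47.9 scaled TPM there, and at most 0.555 elsewhere. CPXM1 had 27.9 there and 2.02 in HL60, and ADGRG1 was named above. SOCS2, an inhibitor of cytokine signalling, was high in K562 at 12.9, and LAPTM4B and BEX3 were low in HL60 at 6.95 and 4.91. The list's median difference was 1.76 in the library labelled MOLM13 and 0.97 in K562, beside 0.08 and -0.11 over all genes. It was -1.34 in both THP_1 and HL60, beside 0.04 and -0.19. The score itself was not computed, and these counts and medians treat its genes alike, whatever their weight or sign in it.

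Receptors and ligands around KIT and FLT3 were mostly at or near 0, with 2 of 7 high, both in THP_1 (3.14% of all). CSF1R, the receptor of macrophage colony-stimulating factor, had 23.2 scaled TPM in THP_1 and 3.64 in HL60. KITLG, the ligand of KIT, had 3.47 in THP_1 and was listed at 0 in the other 3, K562 included. FLT3LG, the ligand of FLT3, was listed at 0 in all 4.

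Of 16 genes that act below KIT and FLT3, 1 was high in a line and 3 were low in a line. SOCS2 was high in K562, which was also the line with the highest levels of PIM1, at 85.7 scaled TPM, and STAT5A, at 33.9. The phosphatase PTPN6 was low in K562, where it was listed at 0, PIM2 was low in the library labelled MOLM13 at 2.23, and LYN was low in HL60, where it was listed at 0. Their median difference was 0.69 for K562, and for the library labelled MOLM13 it was -0.18, beside -0.11 and 0.08 over all genes.

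Of 15 other ETS factors 0 were high in any line, beside all-gene shares from 1.39% in HL60 to 3.14% in THP_1. In K562 3 were low (3.43% of all genes), namely FLI1, SPI1 and ELK3, each listed at 0 there. Nothing is read from the 0 high calls, since few would be called at those shares. SPI1, the myeloid factor PU.1, had 218 scaled TPM in HL60, 148 in THP_1 and 9.19 in the library labelled MOLM13. Among 6 relatives, coactivators and repressors around MYB, 0 passed the rule in either direction, and MYBL2 ranged from 12.0 in HL60 to 19.2 in the library labelled MOLM13. GFI1 had 68.6 in HL60 and 61.2 in THP_1 and was listed at 0 in K562 and the library labelled MOLM13. Its relative GFI1B had 18.6 in K562, 9.70 in the library labelled MOLM13 and at most 0.0215 in the other lines. Of 6 partners and relatives of MECOM, CTBP2 was low in K562, where it was listed at 0, and PRDM16, the closest relative of MECOM, was listed at 0 in all 4.

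**Figure D5:**
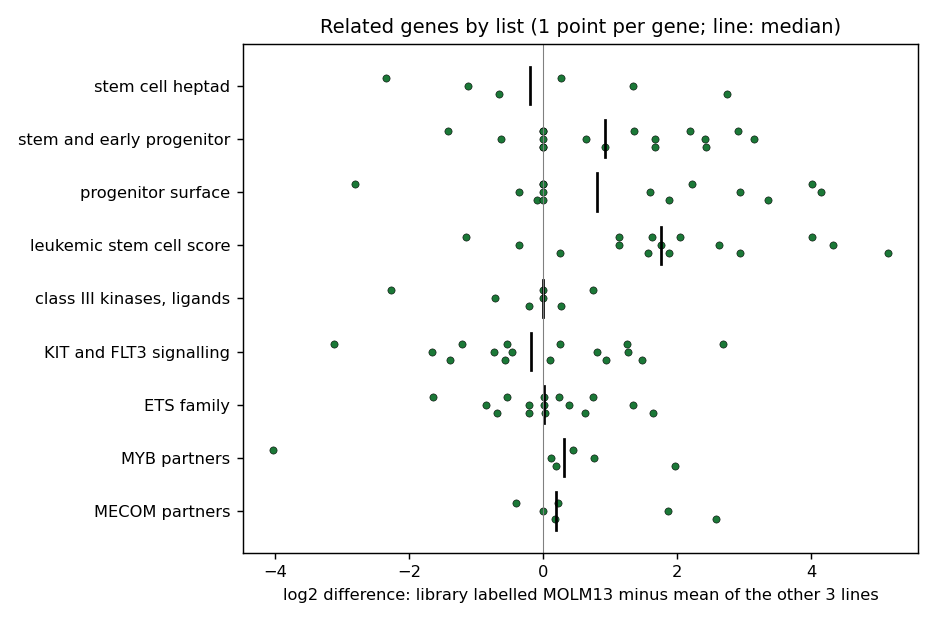
Log2 difference between the library labelled MOLM13 and the mean of the other 3 lines for each gene of the 9 lists, 1 point per gene, with a bar at the list's median. The leukemic stem cell score list has its median at 1.76 and the stem and early progenitor list at 0.92, while the median over all genes tested is 0.08.

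CD34 and ERG are also genes of other cell types, so markers of these were read in the same library. Of the endothelial markers in the library labelled MOLM13, CDH5 was listed at 0, VWF had 0.512 scaled TPM and PECAM1 1.01, against 128.6 for PECAM1 in THP_1. Of 9 lymphoid genes 4 were high in that library: CD3D at 891 scaled TPM, CD247 at 39.4, CD7 at 16.3 and CD3E at 12.4. CD3G, LCK, MS4A1, CD79A and CD79B were listed at 0 there. The summed level of the list was 959 in the library labelled MOLM13, 52.7 in K562, 6.97 in HL60 and 3.88 in THP_1. The summed level of 10 epithelial, fibroblast and endothelial markers was 603 in K562, 424 in the library labelled MOLM13, 200.1 in THP_1 and 53.7 in HL60, with KRT8 and KRT18 at 124.8 and 219.8 in the library labelled MOLM13. The part of the lymphoid and epithelial signal in the levels of CD34, ERG and SMIM24 was not tested.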

How the data were processed

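Ribosome footprint libraries of 4 lines, 1 each, were used as deposited. Per the submitters' processing notes, the tools were StringTie 2.1.5, STAR 2.7.8a, Bowtie2 2.4.2 and Trim Galore 0.6.6, and the build hg38. StringTie ran against GENCODE release 37 without new transcripts and without a strand option, per the file headers. The authors' values, deposited in the attribute text of each line, are TPM, FPKM and mean coverage per transcript, with exons given coverage alone.

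Transcript TPM and aligned bases (coverage times length) were summed per gene identifier, which joins SMIM24 where 1 file gives it no name. TPM was scaled by the median ratio over 3751 genes with at least 10 TPM in all 4 libraries. The factors were 1.12 for the library labelled MOLM13, 0.837 for K562, 1.01 for THP_1 and 1.05 for HL60. Footprint equivalents are aligned bases divided by 29. Genes with at least 600 bases in any line were tested. Exon coverage was summed over transcripts, in place of the planned highest value, because exon values add up to the transcripts that share them. Blocks merge overlapping exons, and coding parts come from GENCODE release 29. Nearest profiles were sought among protein-coding genes.

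The members, lists and alternatives were chosen with earlier results of these data known. Named genes are all 8 members, the 3 nearest profiles of members with at least 10 scaled TPM, and list genes called high or low, with at most 4 others by distance. Further values in the lists and exons were chosen after they were seen. Some genes of the lists are not reported here and were left out of their counts. The size rule was tested on simulated data. Work used Python 3.11.15, SciPy 1.17.1, NumPy 2.4.6, Matplotlib 3.10.9 and pandas 2.3.3.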

Additional observations from a re-analysis of the deposited data

How the results depend on the processing

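No paired analysis was possible because each line has 1 library, which also leaves no replicate to omit. CD34, ERG and SMIM24 stayed high in the library labelled MOLM13 under every alternative that keeps that library. Of the counts of members, 184 stayed within 1.5 times and 48 moved. Of the distances 67 kept direction and side, 12 passed the threshold anew and 4 changed the highest line. Counts with no member in either setting are among those that stayed. Alternatives of the log2 difference or of the minimum of bases leave the distances unchanged. Changes of highest line for CD34 and SMIM24 follow from leaving out the library they were highest in. The tally is therefore no measure of robustness.

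KIT became high in K562, and FLT3 high in THP_1 (1 member each), when TPM was rescaled over nuclear protein-coding genes (log2 distances 2.27 and 2.06), with undivided bases (2.41 and 2.89), with a pseudocount of 0.1 (2.61 and 4.27) and with coverage of coding exons (2.01 and 2.21). At a log2 difference of 1 both passed (1.83 and 1.5), as did MECOM in K562 (1.16), and MYB was low in K562. Without the library labelled MOLM13, KIT was high in K562 at 2.66, and the highest line became THP_1 for CD34 (0.37) and HL60 for SMIM24 (1.01). The highest line of MYB became HL60 with bases left undivided by length (0.20) and with coding exons (0.12). MECOM was low in HL60 with undivided bases and with a pseudocount of 0.1.

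Between pairs, undivided bases and the pseudocount of 0.1 gave 5 members in the library labelled MOLM13 over HL60 (KIT and MECOM added), and 2 in THP_1 over HL60. In THP_1 over K562, where the reported call was MYB, undivided bases and coding exons gave 2 others (CD34 and FLT3) and lost MYB, rescaling over nuclear genes gave FLT3 in place of MYB, and the pseudocount of 0.1 gave 3, MYB among them. The pseudocount of 0.1 gave 2 in K562 over THP_1, and 1 each in HL60 over K562 and over THP_1. A pseudocount of 5 left 0 in K562 over THP_1 or HL60, and a log2 difference of 3 left 0 there and in THP_1 over K562. The log2 difference of 1 gave 2 each in K562 over THP_1, THP_1 over K562, K562 over the library labelled MOLM13 and HL60 over K562. Deposited TPM gave 1 each in K562 over HL60 and HL60 over K562. Deposited TPM also shifted the median gene by 0.23 for the library labelled MOLM13 and -0.35 for K562, and rescaling over nuclear genes by 0.23 in K562 and -0.23 in THP_1. The cause of these changes was not tested. Low footprint counts limit KIT, FLT3 and MECOM, whose highest values rest on 389, 142 and 254 equivalents.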
